A study of Lymantria dispar dispar and Lymantria dispar asiatica with 30 samples.

Results

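The pupae of day 8 after pupation were compared between the Asian and the European strain of the spongy moth (*Lymantria dispar*), across every gene of the expression table. The comparison holds 6 of the 30 libraries of the series, 3 female pupae of each strain, and each library is the polyadenylated RNA of 1 whole pupa. ASM denotes the Asian strain, labelled RM, in its 34th laboratory generation, whose larvae were fed a diet with 0.21 g of iron phosphate per litre. ESM denotes the European strain, labelled CT, in its 32nd laboratory generation, on a diet with 0.13 g per litre. Each strain was a single colony, and the draft ASM genome served as the reference for the 2 strains, so that strain, colony, diet and the match of reads to the reference cannot be told apart. The series as a whole sampled both strains on days 1, 3, 5, 8 and 11, and the study asked which transcripts differ between strains whose females differ in their capability for flight.

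By the middle of the pupal stage the tissues of the caterpillar have been rebuilt, and the epidermis of the future moth lays down the adult cuticle, scales and wings beneath the pupal case. Osiris genes are an insect family of small secretory-pathway proteins. In *Drosophila* they are switched on in cells that are making cuticle, and some of them shape its fine structure. Tweedle proteins are structural proteins of the cuticle, and catalases break down hydrogen peroxide in peroxisomes. All gene names below are putative, since they come from the best protein match that the study gives for a gene model.

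Expression is given as the normalised count, which is the read count recovered from the deposited value and divided by a size factor of the library. Differences are given in VST units, the log2-like unit of the deposited values. The size of this unit depends on the level: going from a normalised count of 10 to its double added 0.98 VST units, but from 1 it added 0.26, from 100 it added 1.65 and from 1000 it added 1.13. Recovered totals were 6124684 to 9643426 reads in the ASM pupae and 3140251 to 6700436 in the ESM pupae. A count of 0 allows up to 3 reads, which is a normalised count of 2.00 to 2.63 in the ASM libraries and 2.11 to 4.56 in the ESM libraries. Levels are compared between pupae and not between genes, because gene lengths were not used.

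The day 8 pupae of each strain were alike, and the strains stood apart. Over the 5000 genes with the highest mean, the root mean square difference between pupae of the same strain was 0.600 to 0.609 VST units within ASM and 0.565 to 0.575 within ESM. Between an ASM and an ESM pupa it was 0.740 to 0.983, so that every pair across the strains differed by more than every pair within a strain. On day 5 this separation was absent, with 0.721 to 1.195 across the strains against 0.753 to 1.11 within ASM and 0.738 to 1.01 within ESM. On the second principal component of all 30 pupae, which held 20.1% of the variance, the ASM pupae of day 8 had scores of -16.9, -12.4 and -7.4 and the ESM pupae of day 8 had 5.9, -1.5 and 4.9. The pupae of day 5 lay between -66.1 and -59.3 on this axis and those of day 11 between 18.8 and 32.6. On this axis every ASM pupa of day 8 thus lay on the side of day 5 relative to every ESM pupa. Over the full distances the order depended on the group compared. The mean root mean square difference to the ASM pupae of day 5 was 1.557 to 1.667 for the ASM pupae of day 8. For the ESM pupae of day 8 it was 1.676 to 1.778. To the ESM pupae of day 11 it was 1.359 to 1.506 for ASM and 1.187 to 1.256 for ESM. The strains overlapped in the distance to the ESM pupae of day 5, with 1.545, 1.621 and 1.662 for ASM and 1.695, 1.592 and 1.714 for ESM. They also overlapped in that to the ASM pupae of day 11, with 1.241 to 1.31 for ASM and 1.165 to 1.247 for ESM. The first component held 45.8% of the variance, and on it the ASM pupae (57.4 to 65.2) and the ESM pupae of day 8 (59.2 to 65.6) overlapped.

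**Figure D1:**
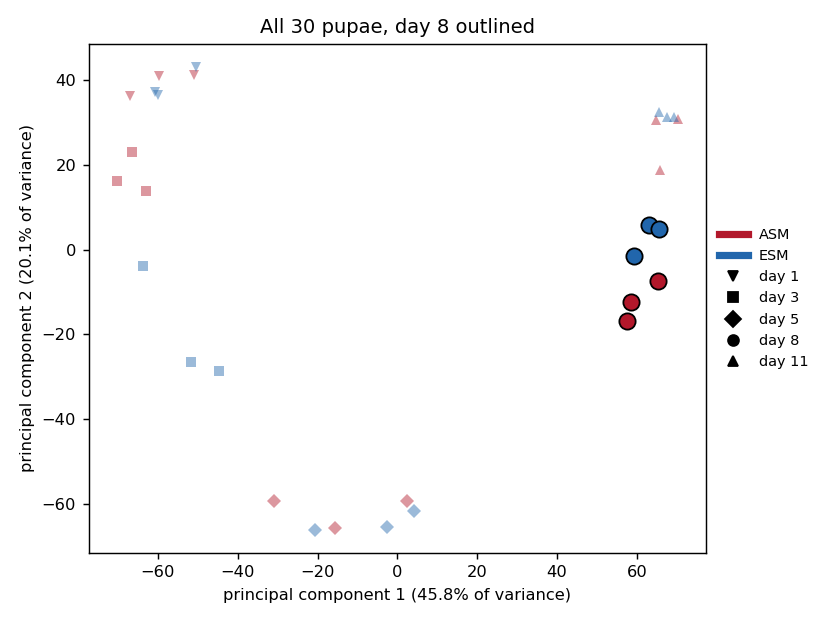
Scores of all 30 pupae on principal components 1 (x axis, 45.8% of the variance) and 2 (y axis, 20.1%), computed on deposited values of 5000 genes, with colour for strain and symbol for day. The outlined points are day 8: ASM pupae lie at -16.9 to -7.4 on component 2 and ESM pupae at -1.5 to 5.9.

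Of 19652 genes tested, 1249 (6.36%) were called different between ASM and ESM on day 8 at an adjusted p under 0.05 (limma with Benjamini-Hochberg adjustment). ASM had the higher level for 695 genes (3.54%) and the lower level for 554 (2.82%). The median difference was 1.65 VST units among genes called higher and -1.71 among those called lower. The largest differences lay on the higher side, where 53 genes differed by at least 6 VST units and 21 by at least 8, against 4 and 1 genes on the lower side. Every ASM pupa was above every ESM pupa for 664 of the 695 genes and below for 541 of the 554, beside 15.8% and 14.4% of all genes tested, or 30.2% in either direction. The count of calls rested on all 6 pupae: without 1 of them it was between 669, without ASM replicate 2, and 976, without ASM replicate 3. It was 703 without ESM replicate 1 and 827 without ASM replicate 1. Of the 620 genes tested that have a description, 61 were called higher and 42 lower. The gene lists below were drawn from names the study gives. Some of those genes were named because of strain differences in these same pupae. The shares over all genes beside a list are therefore given for scale only.

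**Figure D2:**
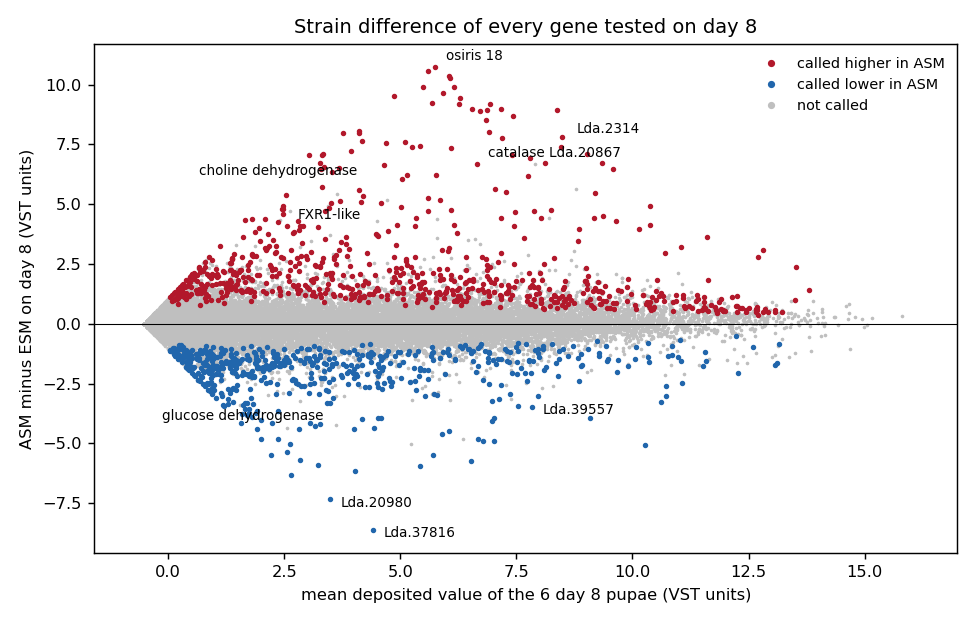
Difference of ASM minus ESM on day 8 (y axis, VST units) against the mean deposited value of the 6 pupae (x axis, VST units) for 19652 genes, with 695 genes called higher in ASM in red, 554 called lower in blue and the rest in grey. The points furthest from 0 are above the line, where 21 genes lie at 8 or more, against 1 gene at -8 or less.

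All 4 Osiris genes measured were higher in ASM pupae, by 7.98 to 10.74 VST units, beside 3.54% of all genes tested called higher. Lda.6827, a putative osiris 18, had normalised counts of 5069.5, 2635 and 449.7 in the 3 ASM pupae, against 0, 34.1 and 1.41 in the 3 ESM pupae. Lda.35031, another putative osiris 18, had 4082, 3206 and 391 in ASM against 0, 16.6 and 0 in ESM. Lda.35510, a putative osiris 20, had 4476, 2376 and 324 in ASM against 0, 14.6 and 0 in ESM. The lowest ASM pupa was thus more than 10 times above the highest ESM pupa for each of these genes. The fourth, Lda.35030, had 683, 543 and 56.7 in ASM against 0, 2.92 and 0 in ESM, where all 3 ESM reads came from a single pupa. Its ratio of ASM over ESM was 438 (95% interval 149 to 2120, counting error only).

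The order of the pupae was the same in all 4 Osiris genes: ASM replicate 1 was the highest and ASM replicate 3 the lowest, and ESM replicate 2 held nearly all ESM reads. The differences were 10.26 ± 0.72 VST units (SE) for Lda.6827, 10.74 ± 1.10 for Lda.35031, 10.56 ± 0.69 for Lda.35510 and 7.98 ± 0.90 for Lda.35030. Their adjusted p were 5.86e-10, 5.3e-07, 2.17e-10 and 2.25e-06 from limma. The fit over 30 libraries shares its spread with days on which these genes had few or no reads, apart from Lda.35031 and Lda.35030 in ESM on day 5. In a fit of the 6 day 8 libraries alone the adjusted p from limma were 0.00338, 0.00249, 0.0029 and 0.0103. These genes are among those the study itself singled out on these pupae, so their direction is not independent evidence.

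Sequence upstream of 2 of these genes is shown because their transcripts are the largest described difference of day 8. Each line gives 60 bases of the ASM draft assembly, 5′ to 3′ on the strand of the gene, from the alignments in the study's supplement, with a TATA motif in capitals. Many core promoters carry such a motif, the TATA box, to place the start of transcription, and the capitals mark the letters searched and not the extent of a box.
Lda.35031, osiris 18: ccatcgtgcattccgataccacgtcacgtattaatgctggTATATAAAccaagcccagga
Lda.35510, osiris 20: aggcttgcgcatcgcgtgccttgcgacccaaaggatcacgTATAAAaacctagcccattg
The capitals start at base 1870 of 1979 for osiris 18 and at base 1899 of 2001 for osiris 20, counted along the upstream sequence. The ESM assembly has identical letters in both windows. TATATAAA, on either strand, occurs in 5.52% of all 60-base windows of the first upstream sequence, and TATAAA, which TATATAAA contains, in 11.4% of those of the other. A match is a description of the letters alone. Positions on the assembly were not used here.

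**Figure D3:**
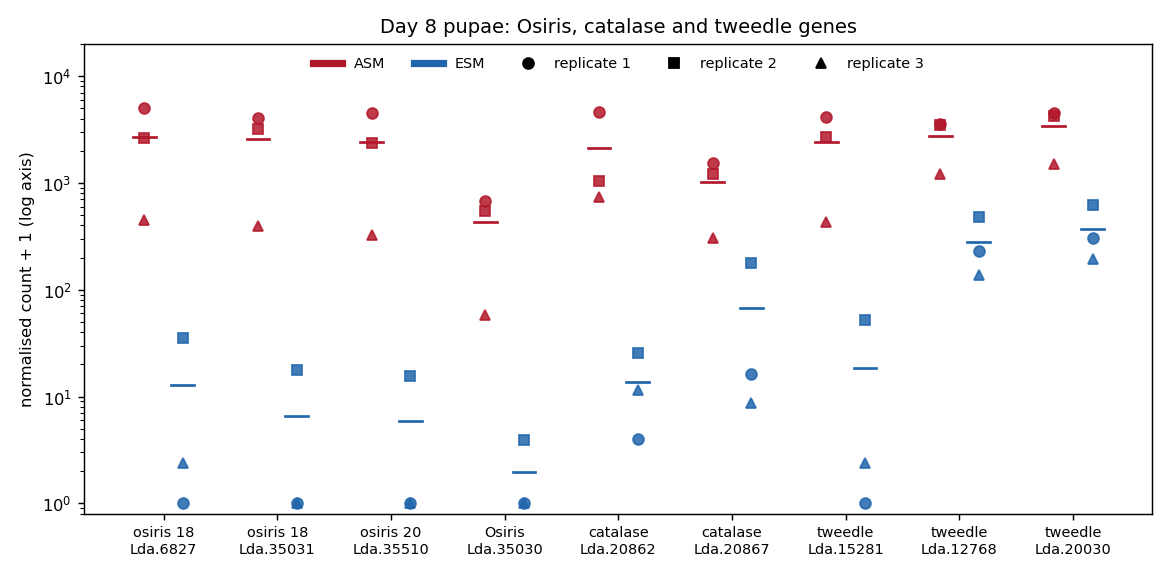
Normalised counts plus 1 (log axis) of 9 genes in each day 8 pupa, ASM in red left of ESM in blue, with a symbol for each replicate number and a line at the mean of the 3 pupae. The strains do not overlap in any of the 9 genes, ASM replicate 3 is the lowest ASM pupa in each, and ESM replicate 2 is the highest ESM pupa in each.

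Outside day 8 the Osiris genes were close to 0 in ASM and nearly so in ESM. Over days 1, 3, 5 and 11 the mean of Lda.6827 was 0, 1.15, 3.64 and 0.16 in ASM and 0, 2.96, 5.89 and 0.83 in ESM. Lda.35031 differed from this on day 5, when its normalised counts were 2.03, 9.95 and 17.6 in ASM pupae against 133, 2.08 and 187 in ESM pupae. Lda.35030 had a like distribution, with 2.03, 1.99 and 0 in ASM against 27.0, 0 and 36.1 in ESM on day 5. Thus 2 of the 3 ESM pupae of day 5 held more reads of both genes than any ESM pupa of day 8. Both genes have the same best protein match, and their counts kept a ratio of 5.90 to 6.89 in the 3 ASM pupae of day 8. Whether reads are shared between them was not tested.

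Of 10 genes for catalase and other redox enzymes, 3 had higher transcript levels in ASM and 7 were not called, with a median difference of 0.63 VST units beside 0.01 over all genes tested. Over all genes tested, 3.54% were called higher and 2.82% lower. Both catalases were among the 3 redox genes called. The study singled out both on these same pupae, so their direction is not independent evidence. Lda.20862 had 4571, 1037 and 733 in ASM pupae, against 3.04, 24.4 and 10.6 in ESM pupae. This difference, 9.45 ± 0.52 VST units (SE), had the smallest adjusted p of the comparison (1.93e-11 from limma, and 0.00123 in the 6 libraries alone). Lda.20867 had 1537, 1209.6 and 302 in ASM against 15.2, 176 and 7.73 in ESM, a difference of 6.70 ± 0.85 (adjusted p = 1.48e-05, limma). In both genes the strains did not overlap, and ESM replicate 2 was again the highest ESM pupa.

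In ASM, Lda.20862 had no read in any pupa of days 1, 3, 5 and 11, and in ESM its means on those days were 0.52, 1.22, 1.13 and 2.95. Day 8 was therefore the sole day with more than a few reads of this catalase in either strain. Lda.20863, an undescribed model chosen here after its values were seen, had 7363, 1329 and 1003 in ASM against 4.56, 78.9 and 9.84 in ESM and was likewise near 0 on the other days. The third called member, the superoxide dismutase Lda.19357, turns superoxide into the hydrogen peroxide that catalase removes. It had 1499.6, 2305 and 1426 in ASM against 948, 1009 and 961 in ESM, a ratio of 1.79 (0.92 ± 0.17 VST units, adjusted p = 0.00118, limma). It was abundant on every day, and on day 11 its means were 2344 in ASM and 1195 in ESM.

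Among 7 genes for cuticle and chitin-binding proteins, the 3 tweedle genes were higher in ASM and the other 4 were not called, beside 3.54% higher over all genes tested. The study also singled out these 3 tweedle genes on the same pupae, so their direction is not independent evidence. Lda.15281 had 4121, 2693 and 434 in ASM pupae against 0, 51.6 and 1.41 in ESM pupae, a difference of 9.92 ± 0.88 VST units (adjusted p = 3.66e-08, limma). Lda.12768 had 3544, 3479.8 and 1199 in ASM against 229.7, 478 and 136 in ESM. Lda.20030 had 4530.3, 4225 and 1506 in ASM against 301, 617 and 192 in ESM. All ASM pupae were above all ESM pupae in the 3 genes, although the ESM level of the last pair was far from 0. Their differences were 4.32 ± 1.04 and 3.95 ± 1.11 VST units (adjusted p = 0.0121 and 0.0335, limma). Without a single pupa, these adjusted p reached 0.0771 for Lda.12768, lost without ASM replicate 1, ASM replicate 2 or ESM replicate 3, and 0.141 for Lda.20030, lost without any of these or ESM replicate 1 (limma). The counts of the pair kept a nearly constant ratio, between 1.21 in an ASM pupa and 1.41 in an ESM pupa, and whether the models share reads was not tested.

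Tweedle transcripts differed from the Osiris transcripts in their course. On day 5 Lda.15281 was at 2051 ± 713 in ASM and 3111 ± 167 in ESM (SD, n = 3), and Lda.12768 was at 5513 ± 2545 in ASM and 9013 ± 1904 in ESM. The ASM mean of Lda.15281 on day 8, 2416 ± 1859 (SD, n = 3), thus lay between the day 5 means of the strains. Its ASM pupae of day 8 ranged from 434 to 4121, whereas the highest ESM pupa of day 8 had 51.6. On day 11 Lda.15281 averaged 0.21 in ASM and 0 in ESM. The other cuticle genes did not share this pattern. Lda.23652, a putative cuticle protein, was read almost exclusively on day 8, with 701, 5245 and 4441 in ASM against 870.2, 3698 and 1294 in ESM (0.56 ± 0.51 VST units, adjusted p = 0.607, limma). Lda.37310, a putative pupal cuticle protein, had 1522, 19809.7 and 11135 in ASM against 10908, 9968 and 13206 in ESM (-0.63 ± 1.14, adjusted p = 0.834, limma). In these genes ASM replicate 1 was the lowest ASM pupa, whereas it was the highest in the Osiris genes. Lda.16832, a putative obstructor-E that binds chitin in *Drosophila*, had 39.1 to 60.5 in ASM against 20.4 to 45.8 in ESM (adjusted p = 0.479, limma), and Lda.38912 had no read in any of the 6 pupae.

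**Figure D4:**
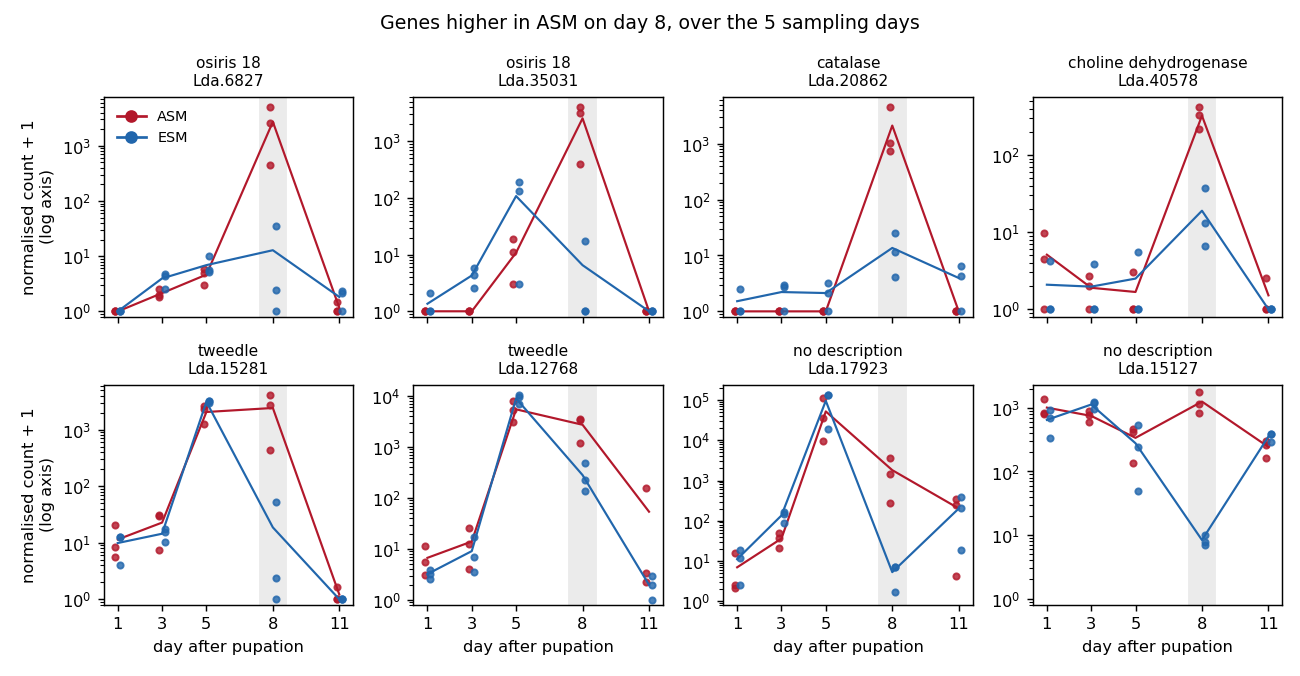
Normalised counts plus 1 (log axis) of 8 genes that were higher in ASM on day 8, by day after pupation (x axis), with a point for each pupa, lines through the means of 3 pupae and day 8 shaded, ASM in red and ESM in blue. The Osiris, catalase and choline dehydrogenase genes have their maximum in ASM on day 8, while the tweedle genes and Lda.17923 were high in both strains on day 5.

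The same order of pupae ran through the 53 genes that were called higher in ASM by at least 6 VST units. ASM replicate 1 was the highest ASM pupa in 42 of them and ASM replicate 3 the lowest in 50. Over all 19652 genes tested, ASM replicate 1 was the highest in 6370 and ASM replicate 3 the lowest in 6675. ESM replicate 2 was the highest ESM pupa in 47 of the 53 genes, and in 6409 of all genes. The size of these differences thus varied from pupa to pupa within both strains. By their course, 28 of the 53 genes stayed on every other day, in both strains, under 1/10 of the ASM mean of day 8. Another 24 had on day 5, in both strains, at least 1/10 of that mean, and 1 gene fell in neither class. On day 5 the ASM mean of 11 of the 53 genes, and the ESM mean of 11, was at or above the ASM mean of day 8, and on day 11 this held for 0 in either strain. The limits of 6 units and 1/10 were chosen after the values were seen.

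Of these 53 genes, 8 have a description. The undescribed model with the largest difference, Lda.3953, had 4776, 3023 and 439.8 in ASM against 0, 27.3 and 2.11 in ESM, like the Osiris genes in level and order. Lda.35029 (1996, 1081 and 176 in ASM against 0, 6.82 and 0.70 in ESM) and Lda.11730 (2456, 1768 and 253 in ASM against 3.04, 20.5 and 2.81 in ESM) were similar and were chosen after their values were seen. Lda.17923 had 3685, 1480.4 and 273 in ASM against 6.09, 5.85 and 0.70 in ESM on day 8, and on day 5 it was at 52728 ± 53747 in ASM and 96919.9 ± 67468 in ESM (SD, n = 3). For this gene the ASM pupae of day 8 stood between the level of day 5 and that of the ESM pupae. With voom on recovered counts it was not called (adjusted p = 0.0825, limma).

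Other undescribed genes had more even ASM pupae. Lda.15127 had 1165, 1759 and 839.6 in ASM against 6.09, 6.82 and 9.14 in ESM, a ratio of 171 (9.64 ± 0.85 VST units, adjusted p = 3.24e-08, limma). It was well expressed in both strains on all other days, with ESM means of 646, 1127, 277 and 354 on days 1, 3, 5 and 11. The low group for this gene was therefore ESM on day 8. Lda.2314 had 3728, 6067 and 2391 in ASM against 24.3, 158 and 66.1 in ESM, and no read in any of the 24 pupae of the other days. Lda.16405 had 268, 219 and 89.6 in ASM against 1.52, 3.90 and 3.52 in ESM and was also close to absent on the other days. Their adjusted p, 6.92e-11 and 5.75e-11 from limma, became 0.00249 and 0.0024 in the 6 libraries alone.

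Of the remaining described genes with large differences, 2 encode putative oxidoreductases. Lda.40578, a putative choline dehydrogenase, belongs to enzymes that oxidise choline to betaine aldehyde. It had 332, 214 and 421 in ASM pupae against 12.2, 36.1 and 5.62 in ESM pupae (6.07 ± 0.53 VST units, adjusted p = 2.74e-08, limma), and its mean was at most 4.10 in either strain on the other days. ASM replicate 3 was here the highest ASM pupa. Lda.8367, a putative 15-hydroxyprostaglandin dehydrogenase, an enzyme that inactivates prostaglandins, had 242, 163 and 138 in ASM against 35, 5.85 and 4.22 in ESM (5.08 ± 1.10, adjusted p = 0.00557, limma). The means also lay apart on day 11, at 173 in ASM and 11.7 in ESM, while on days 1, 3 and 5 they were 103, 131.6 and 166 in ASM and 97.6, 123 and 116 in ESM.

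Both zonadhesin genes were higher in ASM, while the 2 protease inhibitors of that list were not called, beside 3.54% higher over all genes tested. The study singled out both zonadhesins on these same pupae, so their direction is not independent evidence. Zonadhesin is known from mammals as a sperm protein that binds the egg coat. Lda.8470 had 293, 394 and 107 in ASM pupae against 30.4, 39 and 30.9 in ESM pupae (4.08 ± 0.96 VST units, adjusted p = 0.00999, limma). Lda.27052 had 225, 283 and 78.1 in ASM against 24.3, 29.2 and 21.1 in ESM (3.90 ± 0.85, adjusted p = 0.00568, limma). The 2 models kept a ratio of 1.30 to 1.39 in ASM and 1.25 to 1.47 in ESM, and shared reads were not tested. On day 3 the strains stood the other way, at 8.98 in ASM and 113 in ESM on average for Lda.8470. Without ASM replicate 2 the call of Lda.8470 was lost (adjusted p = 0.0739, limma).

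Of 8 takeout and lipid carrier genes, 2 were higher in ASM and none was lower, with a median difference of 0.79 VST units. Over all genes tested 3.54% were higher and 2.82% lower, and the median difference was 0.01. Lda.26736, a putative clavesin, a protein that binds lipids of the membrane, had 483, 473 and 312 in ASM against 114, 216 and 117 in ESM (2.52 ± 0.67, adjusted p = 0.0245, limma). On day 3 its means stood the other way, at 66.3 in ASM and 1199 in ESM. The other, Lda.41150, resembles the transfer protein for alpha-tocopherol, a form of vitamin E. It had 64.8, 73.2 and 113 in ASM against 3.04, 5.85 and 8.44 in ESM (4.10 ± 1.22, adjusted p = 0.0439, limma). The pupae of the strains did not overlap in either gene. The call of Lda.41150 was lost without any 1 of the 6 pupae (adjusted p up to 0.14, limma). That of Lda.26736 was lost without ASM replicate 1, ASM replicate 2, ESM replicate 1 or ESM replicate 3 (up to 0.112). With voom on recovered counts neither was called (adjusted p = 0.151 for Lda.41150 and 0.0641 for Lda.26736, limma). Neither was called on log2 of the normalised count plus 1, nor Lda.26736 on that plus 5.

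Among 10 genes of immune recognition and proteases 1 was called, beside 6.36% of all genes tested in either direction. This was Lda.24052, a putative hemolymph protein that binds bacterial lipopolysaccharide. It had 292, 66.5 and 188 in ASM pupae against 33.5, 50.7 and 52.7 in ESM pupae (2.64 ± 0.70 VST units, adjusted p = 0.0243, limma), and 0.0679 in the 6 libraries alone. The call was lost without ASM replicate 1, ASM replicate 3, ESM replicate 1 or ESM replicate 2 (adjusted p up to 0.158, limma). Its level was high and alike on day 1, at 944 in ASM and 1037 in ESM, and lower in both strains by day 11, at 55.6 in ASM and 4.41 in ESM. Of 10 detoxification genes 1 was called, beside the same 6.36%. This was Lda.28033, a putative transporter related to multidrug resistance proteins, with 158, 204 and 172 in ASM against 44.1, 60.4 and 39.4 in ESM (2.81 ± 0.41, adjusted p = 0.000109, limma). This difference was present on all days, with means of 119.6, 83.3, 78.1, 178 and 86.5 in ASM and 41.6, 18.5, 31.7, 48.0 and 31.9 in ESM from day 1 to day 11.

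Genes of adhesion and the actin cytoskeleton were called in both directions: 4 of 20 were lower in ASM, 1 was higher and 15 were not called, beside 2.82% lower and 3.54% higher over all genes tested. Their median difference was -0.41 VST units. Talin links integrins to actin filaments, and 2 putative talin genes were lower. Lda.35025 had 574, 689 and 644 in ASM pupae against 1021, 1152 and 1036 in ESM pupae (-0.97 ± 0.23, adjusted p = 0.0103, limma), and Lda.16463 had 20.1, 19.3 and 15.3 in ASM against 47.2, 66.3 and 35.1 in ESM (-1.65 ± 0.41, adjusted p = 0.0148, limma). Tensin-1 also joins integrin contacts to actin, and its putative gene Lda.24757 had 0.88, 4.66 and 2.30 in ASM against 13.7, 15.6 and 7.73 in ESM (-1.44 ± 0.32, adjusted p = 0.00619, limma). In these 3 genes the ASM mean was above the ESM mean on days 1 and 3 and below it on days 5 and 11. The day 11 means of Lda.35025 were 667 in ASM and 963 in ESM. Those of Lda.16463 were 22.8 in ASM and 45.1 in ESM, and those of Lda.24757 2.45 in ASM and 6.51 in ESM. None of the ASM pupae of day 8 reached an ESM pupa in these 3 genes. Lda.21279, a putative hemicentin, an extracellular matrix protein, had 5.25, 3.33 and 4.60 in ASM against 31.9, 16.6 and 25.3 in ESM (-2.09 ± 0.49, adjusted p = 0.00971, limma), and was lower in ASM on all days by the means. Calls were lost for Lda.35025 without ASM replicate 1 (adjusted p = 0.0558, limma), for Lda.16463 without ASM replicate 3 or ESM replicate 2 (up to 0.092) and for Lda.21279 without ESM replicate 1 (0.0625). In whole pupae, less RNA per cell and fewer cells of a type cannot be told apart.

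The higher member of that list, Lda.32537, is a putative CYFIP, a partner of the fragile X protein FMRP and a part of the complex that starts actin branching. It had 124, 152 and 140.2 in ASM against 44.1, 57.5 and 48.5 in ESM (2.12 ± 0.29 VST units, adjusted p = 3.63e-05, limma). Lda.6669, whose best match is a homolog of FXR1, an RNA-binding protein of the same fragile X family, was chosen after its values were seen. It had 89.3, 52.6 and 68.2 in ASM pupae against 6.09, 1.95 and 3.52 in ESM pupae (4.08 ± 0.43, adjusted p = 6.98e-07, limma). For both genes this was a difference of every day. The ASM means of Lda.32537 were 211, 245, 217, 139 and 174 over the 5 days and the ESM means 98.2, 86.5, 87.3, 50.0 and 72.8, and the test of day 8 against the other days gave adjusted p = 0.982 for Lda.32537 and 0.38 for Lda.6669 (limma).

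Lower in ASM on every day by the means were also several other genes, some of them with few or no ASM reads. Lda.24583, a putative glucose dehydrogenase, an enzyme with roles in cuticle and immunity in insects, had no read in the 3 ASM pupae of day 8 against 15.2, 21.4 and 31.6 in the ESM pupae. It was at least 30.0-fold lower in ASM, taking 3 reads over the group as the limit of a count of 0 (adjusted p = 6.23e-06, limma). In the 15 ASM pupae of all days it had reads in 1, on day 5, where the mean was 0.33, against ESM means of 5.49 to 31.9 on the other days. Lda.14646, a putative phosducin-like protein, which binds subunits of G proteins, had 12.3, 8.65 and 19.1 in ASM against 86.7, 66.3 and 67.5 in ESM (-2.92 ± 0.37 VST units, adjusted p = 1.34e-05, limma). This gene was read in ASM on every day, with means between 13.35 on day 8 and 45.73 on day 3.

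The other described genes far below ESM match proteins without a known role. Lda.31607 had 1.75, 0 and 3.06 in ASM against 176, 140.3 and 54.8 in ESM (-5.68 ± 0.80), and Lda.31611, with the same best match, had 1.75, 0 and 1.53 in ASM against 128, 113 and 54.8 in ESM. Lda.32612 had no read in ASM on any day against 38.0, 24.4 and 69.6 in ESM on day 8, which is at least 57.9-fold lower. Lda.36558, Lda.36556 and Lda.39710 share a best match and had 0 to 3.06 in ASM against 28.9 to 80.9 in ESM, and Lda.36278 had 0 to 2.63 in ASM against 23.9 to 73.0 in ESM. In the ESM pupae of day 8 the ratio of Lda.36558 over Lda.36556 was 1.27 to 1.46. That of Lda.31607 over Lda.31611 was 1.0 to 1.38. Whether models with the same best match share reads was not tested. The adjusted p of these 7 genes were between 2.89e-06 and 0.00474 (limma), and their tests of day 8 against the other days between 0.533 and 0.97.

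**Figure D5:**
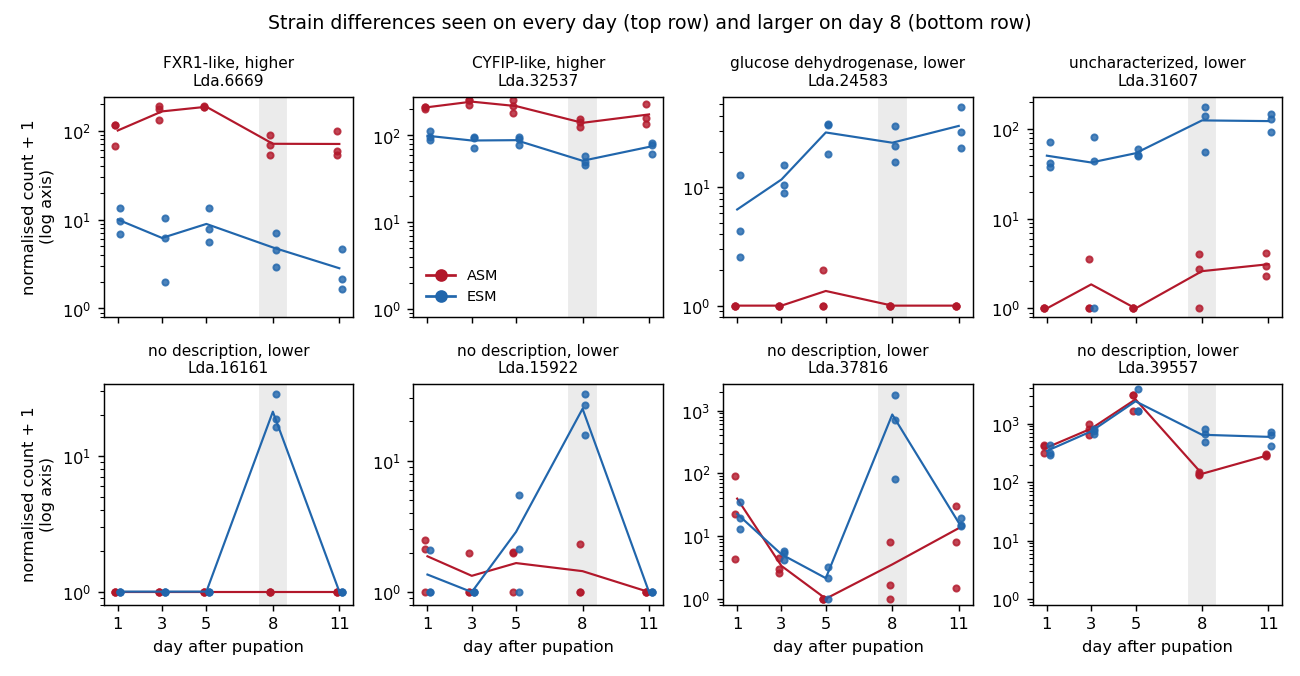
Normalised counts plus 1 (log axis) by day after pupation (x axis) for 8 genes, with a point for each pupa, lines through the means of 3 pupae and day 8 shaded, ASM in red and ESM in blue. In the top row the strains differ on every day by their means, and in the bottom row the strain difference is larger on day 8 than on the other days, most clearly in Lda.16161, which was read in ESM pupae of day 8 alone.

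For other undescribed genes the negative difference was larger on day 8 than over the other days. Lda.16161 had 0, 0 and 0 in ASM against 15.2, 27.3 and 17.6 in ESM, with no read in any other of the 30 pupae (-2.92 ± 0.18 VST units, adjusted p = 5.75e-11, limma, and 0.0029 in the 6 libraries alone). Lda.15922 had 0, 1.33 and 0 in ASM against 25.9, 31.2 and 14.8 in ESM. Lda.39557 had 147, 129.7 and 136 in ASM against 656, 483 and 793 in ESM, whereas on day 5 the means were 2598 in ASM and 2406 in ESM. On day 11 this gene was again lower in ASM by the means, at 288 in ASM and 593 in ESM. Lda.37816 had the largest difference on the lower side, with 0, 0.67 and 6.89 in ASM against 710.5, 79.9 and 1797 in ESM (-8.60 ± 1.10, adjusted p = 1.64e-05, limma). Its ESM pupae of day 8 differed from each other by more than 10 times. Lda.20980 (3.5, 0 and 0 in ASM against 1060.4, 68.2 and 149.8 in ESM) and Lda.22692 (0, 0 and 0 in ASM against 131, 147 and 91.4 in ESM) were low in ASM on the other days too, apart from single ASM pupae of day 1. With voom on recovered counts neither was called (adjusted p = 0.0882 and 0.237, limma), and Lda.22692 was lost without any 1 of the 6 pupae (up to 0.0871).

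The transposon-derived genes were called in both directions. Of 59 measured, 8 were higher in ASM, 7 were lower and 44 were not called, beside 3.54% higher and 2.82% lower over all genes tested, with a median difference of 0.44 VST units. The largest were Lda.11221, with 0.88, 0 and 0.77 in ASM against 91.3, 53.6 and 28.8 in ESM (-4.39 ± 0.47, adjusted p = 1.01e-06, limma), and Lda.31508, with 11.4, 63.9 and 16.1 in ASM against 0, 3.90 and 1.41 in ESM (2.71 ± 0.81, adjusted p = 0.0451, limma). The call of Lda.31508 was kept without ASM replicate 1 and lost without any other pupa (up to 0.278). Lda.18359 had 11.4, 6.65 and 14.6 in ASM against 60.9, 47.8 and 46.4 in ESM, and Lda.25172 had 70.9, 27.3 and 32.2 in ASM against 95.8, 145 and 142 in ESM. In 14 of the 15 called members the mean difference had the same sign on all 4 other days, which held for 33.5% of all genes called higher and 43.5% of those called lower. None of the 59 was called for day 8 against the other days, where 2.40% of all genes were. Copies of a transposon share sequence, so the division of reads among these models is uncertain.

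Of 18 genes of carbohydrate and energy metabolism, 1 was higher and 1 lower in ASM, beside 3.54% higher and 2.82% lower over all genes tested. Lda.33282, named as a homolog of the facilitated trehalose transporter Tret1-2, had 36.8, 40.6 and 32.2 in ASM against 9.13, 6.82 and 11.2 in ESM (2.11 ± 0.46 VST units, adjusted p = 0.00573, limma). Lda.22747, a putative cytoplasmic malate dehydrogenase, had 519, 542 and 601 in ASM against 1527, 878 and 1348 in ESM (-1.46 ± 0.42, adjusted p = 0.039, limma). Among 16 genes of patterning and hormone response 1 was called, beside 6.36% of all genes tested in either direction. This was Lda.35676, a putative receptor of the activin and BMP signals, which was lower, with 145, 120.4 and 125 in ASM against 201, 265 and 149.8 in ESM (-1.05 ± 0.30, adjusted p = 0.0337, limma). The call of Lda.22747 was kept without ESM replicate 2 and lost without any other pupa (adjusted p up to 0.162, limma). That of Lda.35676 was lost without ASM replicate 2, ASM replicate 3, ESM replicate 1 or ESM replicate 2 (up to 0.21).

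Of 12 genes of cilia and flagella, Lda.25888, whose human counterpart ALMS1 sits at the base of cilia, was lower in ASM, with 243, 129 and 129 against 386, 361 and 399 in ESM (-2.08 ± 0.40, adjusted p = 0.00193, limma). All ASM pupae were below all ESM pupae in 5 of the 12, beside 14.4% of all genes tested. The 5 axonemal and intraflagellar genes measured had a summed normalised count of 65.2 to 101.5 in ASM against 109 to 144 in ESM. The strains did not overlap in this sum, and none of the 5 genes was called. Over all 30 pupae the sum was 6.25 to 387. All of these pupae are labelled female, so without a male library the sum cannot check the sex label.

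No gene was called among 16 neuronal genes (median difference -0.10 VST units), 4 genes for heat shock protein 68 (-0.49) and 2 storage proteins (-0.52), beside 6.36% of all genes tested. Over all genes tested, 3954 had an unadjusted p under 0.05. Of the 4 reference genes for qPCR, 3 were not called. Actin (Lda.11070) had 21269 to 46463 in ASM against 26801 to 37576 in ESM, GAPDH (Lda.9151) 1103 to 1751 in ASM against 1095 to 1891 in ESM, and gamma-tubulin (Lda.39600) 146 to 158 in ASM against 170.4 to 174 in ESM. The fourth, Ef1g (Lda.33417), a subunit of the elongation factor of translation, was higher in ASM, with 5640.3, 7664 and 5523 against 3525, 4079 and 3229.8 in ESM (0.61 ± 0.13, adjusted p = 0.00636, limma). Without ASM replicate 2 its adjusted p was 0.0556.

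The strain difference of day 8 was then tested against the mean strain difference of the other 4 days. This called 472 genes (2.40% of those tested), 275 more positive on day 8 (1.40%) and 197 more negative (1.00%), and 377 of them were also called on day 8 itself. All 4 Osiris genes, both catalases, both zonadhesins and the tweedle Lda.15281 were among the 275. With voom on recovered counts the call of Lda.35030 in this test was lost (adjusted p = 0.051, limma). The strongest described genes were Lda.20862 (9.90 VST units, adjusted p = 8.48e-11, limma), Lda.35510 (10.82, 1.48e-09), Lda.6827 (10.52, 4.74e-09), Lda.15281 (9.89, 3.72e-07) and Lda.40578 (5.89, 3.87e-07). The tweedle genes Lda.12768 and Lda.20030 were not called in this test (adjusted p = 0.113 and 0.208, limma).

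For the called genes, the levels of the lower strain on other days were set beside the day 8 mean of the higher strain, without a test. Of the 695 genes higher in ASM, 231 (33.2%) had on some other day an ESM mean at or above the ASM mean of day 8. The highest ESM mean of the other days fell on day 1 for 78 of them, on day 3 for 48, on day 5 for 95 and on day 11 for 10. Of the 554 genes lower in ASM, 167 (30.1%) had an ASM mean at or above the ESM mean of day 8, and the highest ASM mean of the other days was that of day 1 for 66, day 3 for 44, day 5 for 16 and day 11 for 41. Over all genes tested, taken by the sign of their day 8 difference, these shares were 67.6% and 68.6%. Called genes were selected for a clear difference on day 8, which by itself makes the mean of the higher strain harder to reach. The shares of called genes and of all genes are therefore not like for like. The mean difference had the same sign on all 4 other days for 233 (33.5%) of the higher and 241 (43.5%) of the lower genes, beside 21.3% and 21.1% of all genes tested. Among the 695 higher genes, 4 had no read in any ESM pupa of any day, beside 18 of all 19652 genes tested. Among the 554 lower genes, 6 had no read in any ASM pupa of any day, beside 20 of all 19652.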

How the data were processed

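Polyadenylated RNA of 30 female pupae, 3 for each strain on each of 5 days, was sequenced on an Ion Proton instrument with 1 directional library per pupa. Since pupae were separate animals, the spread is biological, within a single colony per strain. The deposited values are on a log2-like scale: the authors trimmed reads with Trimmomatic (0.36), checked them with FastQC (0.11.5), aligned them to the draft ASM genome with HISAT2, assembled gene models with StringTie, counted reads with featureCounts (2.0.0) and applied the variance stabilising transformation (VST) of DESeq2 (1.28.1) in R (4.0.2). Whether counting used the strand is not given in the sources used here.

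All values of a table of 19654 genes lie on a curve shared by the libraries, with a lowest value of -0.516 at a count of 0. Inverting it gave whole counts (within 0.05) for over 99% of values, and these were divided by the size factor to give normalised counts. Tests used limma (3.58.1, R 4.3.3) on deposited values, with 10 group means over 30 libraries, a variance trend and Benjamini-Hochberg adjustment over 19652 genes, those with reads in 3 or more of the libraries. The threshold was 0.05. The strain difference of day 8 against the mean of the other 4 days was a contrast in the same fit. The scripts were tested on simulated data, in which the share of false calls was above the nominal threshold.

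Alternatives were a stricter filter and none, voom on recovered counts, log2 of normalised count plus 1 or 5, libraries shifted to the same median, the 6 day 8 libraries alone, no variance trend, a replicate block, and each day 8 pupa left out. The text names, by rule, list members called on day 8 (of the transposon-derived list the 4 with the largest difference), the Osiris, catalase, zonadhesin, cuticle and reference genes in any case, the 10 described and 3 undescribed called genes with the largest difference each way and no overlap, the 3 called genes with the smallest adjusted p each way, and the 5 described genes with the smallest adjusted p for day 8 against the other days. The comparison, the members and the 16 lists were chosen with earlier results of these data known, and 4 genes were added after their values were seen. Intervals and limits cover counting error.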

Additional observations from a re-analysis of the deposited data

Results flagged for a closer look

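For 25 of the named genes the strain difference of day 8 departed from the mean strain difference of days 1, 3, 5 and 11 in the limma test of that contrast. The values below are the day 8 difference of ASM minus ESM, less the mean difference of the other 4 days, in VST units. A positive value means that ASM minus ESM was larger on day 8 than its mean over the other 4 days. A reversed difference on another day adds to the value, as on day 3 for Lda.26736 and for the zonadhesin models.

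In the Osiris group the values were 10.52 for Lda.6827, 11.77 for Lda.35031, 10.82 for Lda.35510 and 8.48 for Lda.35030. The catalases had 9.9 (Lda.20862) and 7.1 (Lda.20867), and the tweedle gene Lda.15281 had 9.89. The zonadhesin models had 5.58 (Lda.8470) and 5.32 (Lda.27052), the clavesin Lda.26736 had 3.68, and the choline dehydrogenase Lda.40578 had 5.89. Among undescribed genes the values were 10.35 (Lda.3953), 10.99 (Lda.17923), 9.59 (Lda.15127), 6.37 (Lda.16405), 7.82 (Lda.2314), 9.56 (Lda.35029), 9.16 (Lda.11730) and 9.15 (Lda.20863).

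The negative values were -0.98 for the talin Lda.35025, -1.6 for the tensin Lda.24757, and -8.3, -2.92, -3.03 and -3.28 for the undescribed Lda.37816, Lda.16161, Lda.15922 and Lda.39557.

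In this contrast the call of Lda.35025 was lost without any 1 of the 6 day 8 pupae (adjusted p 0.0603 to 0.138, limma) and with no variance trend (0.0634). That of Lda.24757 was lost without ASM replicate 1, ESM replicate 1 or ESM replicate 2 (0.056 to 0.0693). With voom on recovered counts the calls of Lda.35030 (0.051), Lda.17923 (0.134) and Lda.37816 (0.139) were lost.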

How the results depend on the processing

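No result reversed direction. Leaving out single day 8 pupae gave 669 to 976 calls for ASM against ESM, 338 to 583 of them higher and 303 to 393 lower in ASM, and 267 to 392 calls for day 8 against the other days. With voom on recovered counts the contrast with the other days called 286 genes, against 472 on deposited values. Every other alternative kept these counts within 1.5 times, and of the 1249 calls 846 were also made from the 6 day 8 libraries alone. Of the 56 named genes called on day 8, 40 were called under every alternative that gave a value. Calls were lost with voom (7), with log2 of normalised count plus 1 (3) or plus 5 (1), with the 6 libraries alone (3) and with the replicate block (1, Lda.31508). The filter on reads in all 6 libraries gave values for 36 of the 56 and kept them all. The same-numbered pupae of the strains deviated from their group means with correlations of 0.005, 0.047 and 0.095. Between pupae with unlike numbers the correlations were -0.105 to 0.059. Whether same-numbered pupae shared a batch was not tested. The replicate block called 1272 genes on day 8 (703 higher, 569 lower) and 483 for the contrast with other days. Genes with few reads limit the comparison: 1541 genes had no read in ESM replicate 1, the day 8 library with the fewest reads.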
